A study of Rattus norvegicus with 6 samples.

Results

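The genes described here are 9 regulators of cell cycle exit and senescence: the CDK inhibitors Cdkn1a, Cdkn1b, Cdkn1c, Cdkn2a, Cdkn2b, Cdkn2c and Cdkn2d, the retinoblastoma gene Rb1 and the p53 antagonist Mdm2. They were taken by symbol, and 9 of the 9 were among the 14475 genes with counts. RNA came from vascular smooth muscle (VSM) cells cultured from the soleus feed artery (SFA), which supplies the soleus muscle, of male Fischer 344 rats that carried no transgene or treatment. The young group was aged 4 months and the old group 24 months, with 3 rats and 3 stranded polyA libraries in each. The cells had been grown in medium with fetal bovine serum before RNA was extracted, so the values describe cultures and not the arterial wall, and their passage number is not given in the sources used here.

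CDK inhibitors stop the kinases that drive a cell from G1 into S phase. The INK4 proteins, encoded by Cdkn2a, Cdkn2b, Cdkn2c and Cdkn2d, bind Cdk4 and Cdk6 and keep them from D-type cyclins, whereas the CIP/KIP proteins, encoded by Cdkn1a, Cdkn1b and Cdkn1c, bind cyclin-CDK complexes and block mainly those with Cdk2. Active kinases phosphorylate the Rb protein and free E2F transcription factors, and p53, which Mdm2 marks for degradation, turns on Cdkn1a. In senescent cells p21 (Cdkn1a) and p16 (Cdkn2a) are widely used as markers, and the Rb and p53 proteins are controlled largely by phosphorylation and degradation, which RNA counts do not show.

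The stretches before Cdkn1a and Cdkn2b are shown because Cdkn1a is the best known p53 target and Cdkn2b had the largest fold difference among the members with ample counts. They were read from RefSeq on assembly GRCr8, where 8 of the 9 members had an entry and Cdkn1c had none. The search covered 250 bases before the transcript start that the table uses, which need not be the start used in these cells. Only the part that lies outside the annotated gene is printed, 138 bases for Cdkn1a (chr20:7150682-7150819, plus strand) and 199 bases for Cdkn2b (chr5:109134907-109135105, minus strand), with matches in capitals.
Cdkn1a: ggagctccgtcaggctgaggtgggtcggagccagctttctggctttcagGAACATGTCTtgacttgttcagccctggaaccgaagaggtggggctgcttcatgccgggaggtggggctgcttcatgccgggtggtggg
Cdkn2b: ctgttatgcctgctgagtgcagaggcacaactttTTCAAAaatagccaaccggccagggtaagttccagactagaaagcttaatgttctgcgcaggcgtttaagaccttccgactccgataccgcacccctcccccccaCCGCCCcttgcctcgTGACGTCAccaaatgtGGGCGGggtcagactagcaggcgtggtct
The capitals in Cdkn1a are a match to the p53 decamer, the unit from which p53 binding sites are built. This decamer occurred in the window of 4 of the 8 members and in 6.64% of all 33469 windows of the table, on either strand. In Cdkn2b the capitals are, in order, a CHR element (TTTGAA), a GC box (GGGCGG), a CRE (TGACGTCA) and another GC box, with the CHR element and the first GC box read on the opposite strand. A CRE was present in 1 of the 8 members and in 1.59% of all windows, a GC box in 7 of the 8 and in 30.5%, and a CHR element in 2 of the 8 and in 16.2%. The windows of the 8 members held 58.8% to 81.2% G and C, beside a median of 51.2% for all windows. The part of this base composition in the motif shares was not tested. No window of the 8 held the E2F motif TTTNGCGC, which occurred in 1.04% of all windows. The other motifs searched on both strands were CCAAT, found in 2 of the 8 members and 34.0% of windows, TGTTTAC of FOXO factors, found in 1 and 3.21%, and the TATA box, AP-1 motif and E-box (TATAAA of TATA-binding protein, TGANTCA of AP-1, CACGTG of bHLH factors), found in 0 of the 8 and in 12.9%, 6.34% and 5.59%. No match overlapped another in the printed sequences, whereas in Cdkn2d the p53 decamer overlapped a GC box.

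Counts on genes totaled between 44235674 and 59700887 per library, and even numbers made up 68.7% to 71.1% of low counts (1 to 19) per library, while the setting for read mates is not given in the sources used here. Values are given as CPM, counts scaled to a common TMM-normalized library size. A value after ± is the SD of the 3 libraries of a group. CPM is not scaled by gene length and is compared only between libraries of the same gene. Smooth muscle markers were present in all libraries, with 10 of 10 genes in the table and a summed level of 17038 to 28661 CPM in young and 6235 to 9469 CPM in old. Fibroblast markers summed to 267 to 739.7 CPM in young and 1189 to 2178 CPM in old (9 of 10 in the table). Endothelial markers (6 of 10, without Cdh5, Tie1, Emcn and Cldn5) were at 35.1 to 45.2 CPM in young and 32.9 to 44.1 CPM in old, and leukocyte markers (4 of 10, without Ptprc) at 5.35 to 16.6 CPM and 10.9 to 17.2 CPM. Skeletal muscle markers (5 of 10, without Myod1, Myog and Pax7) were at 174 to 390.3 CPM in young and 36.0 to 66.8 CPM in old, and Schwann cell markers (4 of 10, without Sox10) at 13.7 to 75.7 CPM and 55.1 to 86.6 CPM. The part of these marker differences in the results for the 9 members was not tested, and in a bulk culture fewer cells of a type and less RNA per cell cannot be told apart. Old replicate 1 stood apart from the other old libraries in proliferation genes, and each member is therefore also given without it.

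Of the 9 members, 7 had a higher and 2 a lower estimate in old VSM cells, and 0 of the 9 passed the thresholds for a differentially expressed gene (DEG), which were an edgeR quasi-likelihood adjusted p below 0.05 together with a log2 fold change of 1 or more in either direction. The background was low, since only 0.00691% of all genes (1 of 14475) was called. The DESeq2 Wald test called 5.56% of all genes (2.25% higher and 3.31% lower in old) and limma-voom 0% on the same counts, and each called 0 of the 9 members. At an unadjusted p under 0.05, edgeR gave 4 members, all higher in old (Cdkn1a, Cdkn1b, Cdkn1c and Cdkn2b), beside 22.6% of all genes in either direction and 11.2% in that direction. In 2 members (22.2%), Cdkn1a and Cdkn1b, the old libraries all lay above the young libraries, and in 0 they all lay below. Of all genes, 29.2% had groups that did not overlap, 14.5% with old above and 14.7% with old below. The median log2 fold change of the 9 members was 0.26, beside 0.02 for all genes. With 3 libraries against 3, an exact permutation test cannot give a two-sided p under 0.1.

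**Figure D1:**
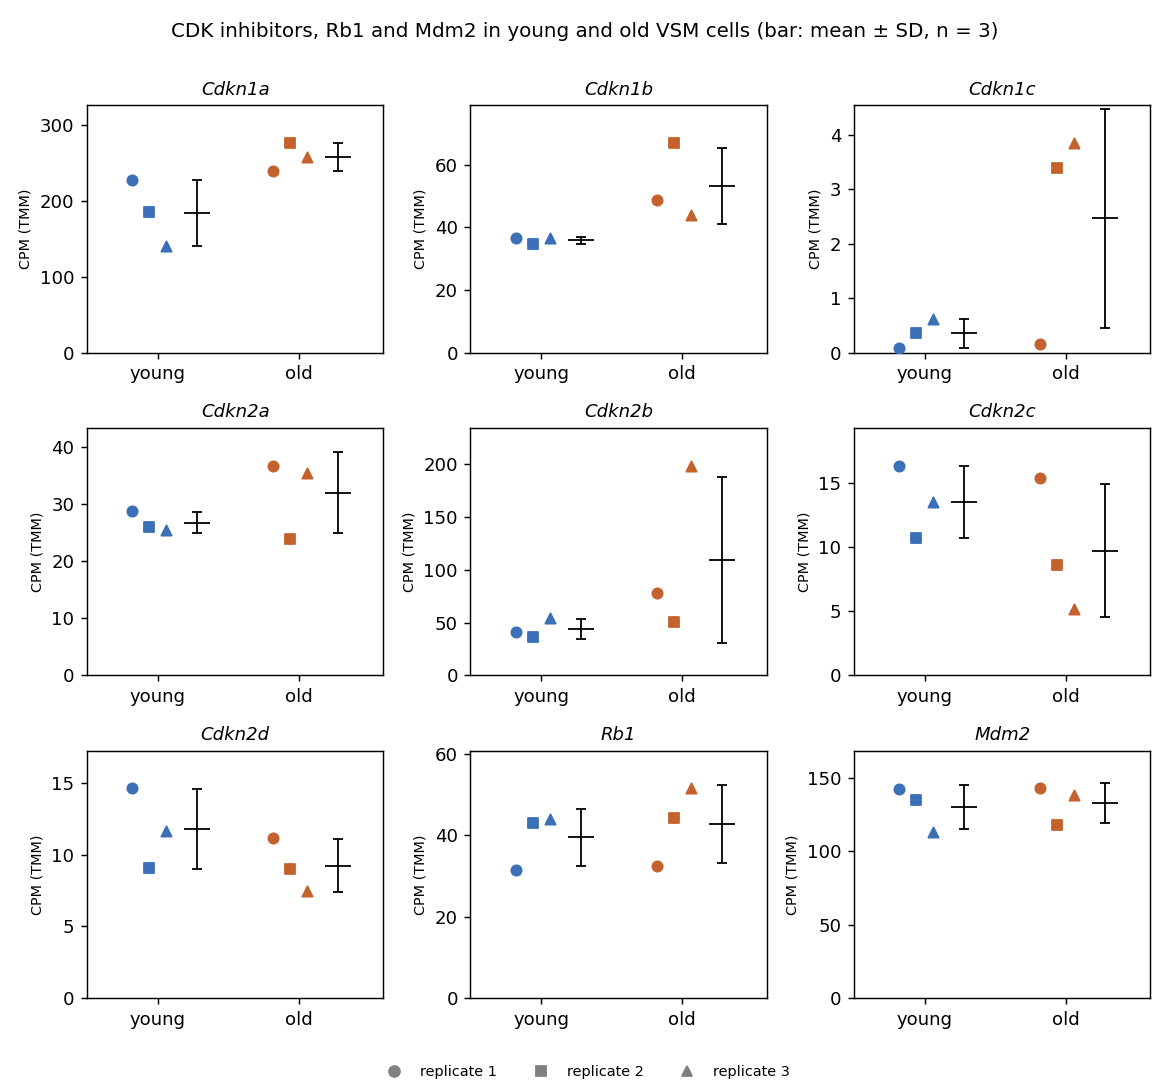
TMM-normalized CPM (vertical axis, from 0, a separate scale per gene) of the 9 members in young and old VSM cells. Symbols are the 3 replicates of a group and the bar beside them is the mean ± SD (n = 3). Old Cdkn1a and Cdkn1b lie above all young values, old Cdkn1c is high in replicates 2 and 3 only, and old Cdkn2b reaches 199 CPM in replicate 3.

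Among the CIP/KIP inhibitors, Cdkn1a (ENSRNOG00000000521), which encodes p21, had 228, 185 and 140.4 CPM in young replicates 1, 2 and 3 and 239.9, 276 and 257 CPM in old replicates 1, 2 and 3. Every old library lay above every young one, although the gap between the highest young and the lowest old library was small beside the spread of the young libraries. The young mean was 184 ± 43.7 CPM and the old mean 258 ± 18.1 CPM (SD, n = 3), or 1.40-fold. The log2 fold change was 0.48 (standard error 0.18, 95% interval 0.04 to 0.92, edgeR adjusted p = 0.198). It lay between 0.32 and 0.66 when any single library was removed.

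Cdkn1b (ENSRNOG00000007249) encodes p27, an inhibitor that accumulates in quiescent cells and is removed through the ubiquitin ligase subunit Skp2. It had 36.5, 34.6 and 36.7 CPM in the young libraries and 48.7, 66.9 and 43.9 CPM in the old libraries. The young libraries were close together, and the old libraries all lay above them. Its log2 fold change was 0.57 (standard error 0.17, 95% interval 0.17 to 0.96, edgeR adjusted p = 0.136), or 1.48-fold. DESeq2 gave an adjusted p of 0.0434 for this gene, but its log2 fold change of 0.56 in that test was below the threshold on fold. Without old replicate 2, the highest library, the edgeR log2 fold change was 0.36. Skp2 itself was at 9.60 ± 1.13 CPM in the young and 5.79 ± 1.06 CPM in the old cultures, a log2 fold change of -0.73 (edgeR adjusted p = 0.114) and no overlap between the groups.

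Cdkn1c (ENSRNOG00000059500), the imprinted gene of p57, was near the lower end of detection. Reads assigned to it numbered 4, 22 and 30 in young and 8, 176 and 206 in old, or 0.0886, 0.366 and 0.611 CPM and 0.161, 3.39 and 3.84 CPM. Old replicates 2 and 3 were above all young libraries, whereas old replicate 1 lay among the young ones. The log2 fold change of 2.78 was the largest of the 9 but also the least precise (standard error 1.14, 95% interval 0.04 to 5.52, edgeR adjusted p = 0.216). DESeq2 also gave 2.78, with an adjusted p of 0.0616, just above the threshold on p. Without old replicate 1 the edgeR log2 fold change was 3.33 (standard error 0.68, edgeR adjusted p = 0.0473). Cdkn1c was then a DEG, in a fit that called 5.06% of all genes. With any other library left out the log2 fold change lay between 2.31 and 3.38 and the adjusted p between 0.32 and 0.404 (edgeR).

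The INK4 genes had estimates in both directions. Cdkn2b (ENSRNOG00000006735), which encodes p15, a target of TGF-beta signaling, had 40.8, 36.2 and 54.6 CPM in young and 77.6, 50.8 and 199 CPM in old. Old replicate 3 was far above the other old libraries, at 4.53 times the young mean compared with 1.77 and 1.16 times in old replicates 1 and 2, and old replicate 2 lay below young replicate 3. The log2 fold change was 1.31 (standard error 0.50, 95% interval 0.11 to 2.52, edgeR adjusted p = 0.199). DESeq2 also gave 1.31, past the threshold on fold, with an adjusted p of 0.0559, just above the threshold on p. The edgeR log2 fold change was 0.55 without old replicate 3 and lay between 1.19 and 1.65 without any other library. Without old replicate 2 or young replicate 3, the libraries through which the groups overlapped, the remaining groups did not overlap. In these fits 36.2% and 38.7% of all genes had no overlap, and the edgeR adjusted p of Cdkn2b was 0.19 and 0.307.

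Cdkn2a (ENSRNOG00000059837) yields p16 and, from another first exon and reading frame, the p53 activator ARF, and a count per gene does not separate them. Its levels were 28.8, 25.9 and 25.6 CPM in young and 36.7, 23.8 and 35.4 CPM in old. Old replicates 1 and 3 were above the young libraries and old replicate 2 was below them. The log2 fold change was 0.26 (standard error 0.18, 95% interval -0.17 to 0.68, edgeR adjusted p = 0.41), and the interval ends below the threshold of 1. Without old replicate 2, the only old library below the young ones, the value was 0.43 (edgeR adjusted p = 0.193). The groups then did not overlap, which follows from leaving out that library, beside 36.2% of all genes in the same fit. Without old replicate 1 or old replicate 3 the value was 0.15 and 0.18.

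In the RefSeq gene order Cdkn2b lies next to Cdkn2a, with Mtap, which encodes a methionine salvage enzyme, on the other side of Cdkn2a. Mtap was at 108 ± 32.7 CPM in the young and 86.7 ± 23.7 CPM in the old cultures, a log2 fold change of -0.32 (edgeR adjusted p = 0.52). In old replicate 3, where Cdkn2b was 4.53 times its young mean, Cdkn2a was 1.32 times its own. In old replicate 1 these ratios were 1.77 and 1.37, and in old replicate 2 they were 1.16 and 0.89.

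Cdkn2c (ENSRNOG00000008956), which encodes p18, had 16.3, 10.7 and 13.5 CPM in young and 15.4, 8.60 and 5.17 CPM in old. Old replicates 2 and 3 lay below the young libraries, and old replicate 1 lay near the top of them. For Cdkn2c the estimate was -0.48 on the log2 scale (standard error 0.40, 95% interval -1.43 to 0.48, edgeR adjusted p = 0.49). Without old replicate 1, the only old library within the young range, it was -0.97 (edgeR adjusted p = 0.0979). The groups then did not overlap, beside 52.6% of all genes in the same fit. Without old replicate 3 it was -0.17. Cdkn2d (ENSRNOG00000064248), which encodes the related inhibitor p19, had 14.6, 9.06 and 11.7 CPM in young and 11.2, 9.04 and 7.50 CPM in old, so the groups overlapped. Its log2 fold change was -0.35 (standard error 0.23, 95% interval -0.91 to 0.21, edgeR adjusted p = 0.393).

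Rb1 (ENSRNOG00000016029) had 31.5, 43.1 and 43.9 CPM in young and 32.4, 44.4 and 51.6 CPM in old. Replicate 1 was the lowest library of both groups, and the groups overlapped through old replicate 1. The log2 fold change was 0.11 (standard error 0.21, 95% interval -0.39 to 0.61, edgeR adjusted p = 0.759), and it turned to -0.03 without young replicate 1 and to -0.04 without old replicate 3. Lpar6, a receptor gene annotated within the span of Rb1, was at 8.60 ± 2.59 CPM in the young and 4.48 ± 1.41 CPM in the old cultures. Reads of overlapping genes are uncertain because the strand setting of the counting is not given in the sources used here.

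Mdm2 (ENSRNOG00000006304), which encodes the ubiquitin ligase of p53 and is itself a p53 target, had 142, 135 and 113 CPM in young and 143, 118 and 138 CPM in old. The estimated log2 fold change was 0.03 (standard error 0.13, 95% interval -0.28 to 0.34, edgeR adjusted p = 0.905), the narrowest interval of the 9. The sign turned with young replicate 3 left out (-0.06) and with old replicate 1 left out (-0.02).

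**Figure D2:**
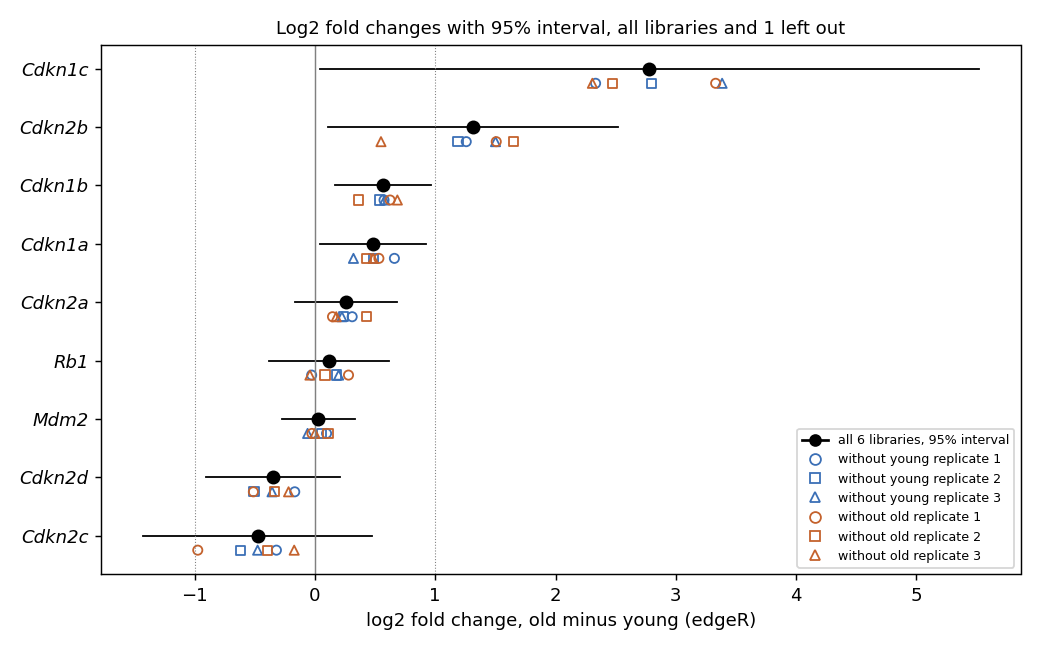
Log2 fold changes of the 9 members (old minus young, edgeR) with all 6 libraries and their 95% intervals (black), and after removing single libraries (open symbols, blue for young and orange for old). Dotted lines mark the threshold of 1 on the log2 scale. Cdkn1c spans 0.04 to 5.52, Cdkn2b drops to 0.55 without old replicate 3, and Mdm2 and Rb1 lie near 0.

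Taken by library, old replicate 1 lay within the young range for Cdkn1c, Cdkn2c, Cdkn2d and Rb1, at 0.453, 1.14, 0.951 and 0.821 times the young mean. Old replicate 3 was the most distant for Cdkn1c, Cdkn2b, Cdkn2c, Cdkn2d and Rb1, at 10.8, 4.53, 0.382, 0.636 and 1.30 times the young mean. Old replicate 2 was the highest for Cdkn1a and Cdkn1b, at 1.50 and 1.86 times the young mean, and it was the lowest old library for Cdkn2a and Cdkn2b. The inhibitors therefore did not rank the old cultures in the same order. Without old replicate 1, 6 of the 9 members had groups that did not overlap, 4 of them higher and 2 lower in old, beside 52.6% of all genes. The log2 fold change without that library was 0.53 for Cdkn1a, 0.62 for Cdkn1b, 0.15 for Cdkn2a, 1.51 for Cdkn2b, -0.51 for Cdkn2d and 0.28 for Rb1, with edgeR adjusted p from 0.0933 to 0.621.

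Genes of the surrounding pathway were taken from lists chosen with earlier results of these data known, and they are described by counts without a test of the list. edgeR called 0 genes of each of these lists. Of 13 genes of p53 regulation in the table, 7 had a higher and 6 a lower estimate in old cultures, and the median log2 fold change was 0.02. Mdm4, which encodes an Mdm2-like inhibitor of p53, was at 22.4 ± 2.28 CPM in the young and 30.1 ± 2.66 CPM in the old cultures, and the groups did not overlap (log2 fold change 0.43, edgeR adjusted p = 0.123). Chek1, the checkpoint kinase of S phase, had 14.2, 11.8 and 15.2 CPM in young and 10.2, 6.25 and 5.93 CPM in old (log2 fold change -0.88, edgeR adjusted p = 0.124). Atr, the kinase that activates Chek1, had a log2 fold change of -0.42 (edgeR adjusted p = 0.361) with overlapping groups.

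The p53 target genes had estimates in both directions. The list of 32 measured targets did not include the members Cdkn1a and Mdm2. Of these 32, 14 had a higher and 18 a lower estimate in old, and the median log2 fold change was -0.04, beside 0.02 for all genes. At an unadjusted p under 0.05 there were 7 higher and 4 lower (edgeR), where the table as a whole had 11.2% of genes higher and 11.5% lower. Groups did not overlap in 12 targets (37.5%), 7 with old above and 5 with old below, beside 29.2% of all genes. Gadd45a, a growth arrest gene, was 3.53-fold higher, at 30.2, 51.7 and 27.7 CPM in young and 73.0, 106 and 208 CPM in old (log2 fold change 1.82, standard error 0.44, edgeR adjusted p = 0.105). Tp53inp1, which encodes a stress protein that acts with p53, had 10.2, 13.4 and 14.3 CPM in young and 25.9, 23.6 and 40.7 CPM in old (log2 fold change 1.25, standard error 0.25, edgeR adjusted p = 0.0743). Sesn1, a sestrin gene, had means of 10.1 ± 0.422 CPM in young and 18.6 ± 3.84 CPM in old, a log2 fold change of 0.89 (edgeR adjusted p = 0.0692). DESeq2 called Gadd45a and Tp53inp1 and no other of the 32 genes, beside 5.56% of all genes.

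Ccng1, which encodes cyclin G1, was at 477 ± 50.8 CPM in the young and 436 ± 57.9 CPM in the old cultures. Its log2 fold change of -0.13, that of Phlda3 of -0.16 and that of Zmat3 of 0.05 had edgeR adjusted p of 0.609, 0.515 and 0.87. Bax, which encodes a death effector, was higher with no overlap between the groups (57.8 ± 1.90 and 69.2 ± 3.62 CPM, edgeR adjusted p = 0.156). Eda2r, a death receptor gene, had 46.1 CPM in old replicate 3 and 16.8 and 23.6 CPM in the other old libraries, compared with 18.7 to 25.3 CPM in young. Btg2, an antiproliferative target, was lower, with 19.2, 26.9 and 25.1 CPM in young and 17.8, 5.52 and 3.15 CPM in old (log2 fold change -1.43, edgeR adjusted p = 0.227).

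On the Rb side, 15 of 17 genes for pocket proteins, E2F factors and the DREAM complex had a lower estimate in old, and the median log2 fold change was -0.50. Groups did not overlap in 10 of them (58.8%), 8 lower and 2 higher, beside 29.2% of all genes. The relatives of Rb1 had estimates of opposite sign. Rbl1, which encodes p107 and is expressed in cycling cells, had 21.3, 14.7 and 23.0 CPM in young and 15.3, 9.81 and 8.21 CPM in old (log2 fold change -0.83, edgeR adjusted p = 0.168), whereas Rbl2, which encodes p130 of resting cells, had 37.9, 40.3 and 37.2 CPM in young and 43.2, 52.8 and 63.9 CPM in old (log2 fold change 0.47, edgeR adjusted p = 0.157). E2f4, the repressor E2F that pairs with Rbl2, was at 30.9 ± 2.35 CPM in the young and 30.9 ± 2.14 CPM in the old cultures.

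Among genes of the list that averaged at least 1 CPM, the largest differences were those of Mybl2, E2f7 and E2f8 (E2f1 and Foxm1 were not in the table), which are themselves expressed in S phase. Mybl2 had 26.8, 16.3 and 29.5 CPM in young and 14.6, 3.29 and 3.64 CPM in old (log2 fold change -1.75, edgeR adjusted p = 0.18). E2f7 had a log2 fold change of -1.66 and E2f8 of -1.15, with edgeR adjusted p of 0.173 and 0.36. DESeq2 called Mybl2 and E2f7, 2 of the 17 genes, beside 5.56% of all genes. The smallest adjusted p was that of E2f6, a gene for a repressive E2F chosen after its values were seen, with 78.7, 81.6 and 69.4 CPM in young and 39.7, 37.3 and 39.2 CPM in old (log2 fold change -0.98, standard error 0.09, edgeR adjusted p = 0.0531). DESeq2 gave E2f6 an adjusted p of 1.18e-15, but its log2 fold change of -0.99 in that test was short of the threshold on fold. Old replicate 1 did not stand apart from the other old libraries in E2f6.

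The targets of the inhibitors are cyclins and CDKs of G1 and S phase. The list of 16 genes also held genes that are not their targets, namely Skp2, Fbxo5, Cdc25a, Cks1b, Mnat1, Cdk7 and Ccnh. In the whole list, 15 of 16 genes had a lower estimate in old, and the median log2 fold change was -0.67. At an unadjusted p under 0.05 there were 8 lower and 0 higher (edgeR), beside 11.5% and 11.2% of all genes. Groups did not overlap in 7 (43.8%), all with old below, beside 14.7% of all genes in that direction and 29.2% in either. For the INK4 targets, Cdk4 was at 133 ± 13.7 CPM in the young and 141 ± 4.72 CPM in the old cultures. Cdk6 had 31.7, 19.6 and 19.3 CPM in young and 27.2, 11.9 and 15.0 CPM in old, with replicate 1 the highest of each group (log2 fold change -0.39, edgeR adjusted p = 0.533). Of the D-type cyclins, Ccnd3 had 110, 115 and 132 CPM in young and 84.2, 76.8 and 70.6 CPM in old (log2 fold change -0.62, standard error 0.11, edgeR adjusted p = 0.0651). Ccnd2 had 116, 152 and 264 CPM in young and 60.6, 22.5 and 96.6 CPM in old (log2 fold change -1.56, standard error 0.56, edgeR adjusted p = 0.18). It was the 1 gene of this list of 16 that DESeq2 called, beside 5.56% of all genes. In Ccnd1 the groups overlapped, with 22.2 CPM in old replicate 2 and 81.0 CPM in old replicate 1.

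Cdk2, the kinase restrained by p21 and p27, had 15.1, 13.2 and 13.9 CPM in young and 9.71, 7.87 and 4.72 CPM in old (log2 fold change -0.92, edgeR adjusted p = 0.13), and the groups did not overlap. Its partner Ccne1 was also without overlap, at 19.3 ± 3.18 CPM in the young and 11.7 ± 1.98 CPM in the old cultures (log2 fold change -0.73, edgeR adjusted p = 0.107). For Ccne2 the log2 fold change was -1.20 (edgeR adjusted p = 0.191) and old replicate 1 lay within the young range. Ccna2, the cyclin of S phase, and Fbxo5, an inhibitor of the anaphase-promoting complex, had log2 fold changes of -1.30 and -1.22 (edgeR adjusted p = 0.273 and 0.192), also with old replicate 1 within the young range.

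**Figure D3:**
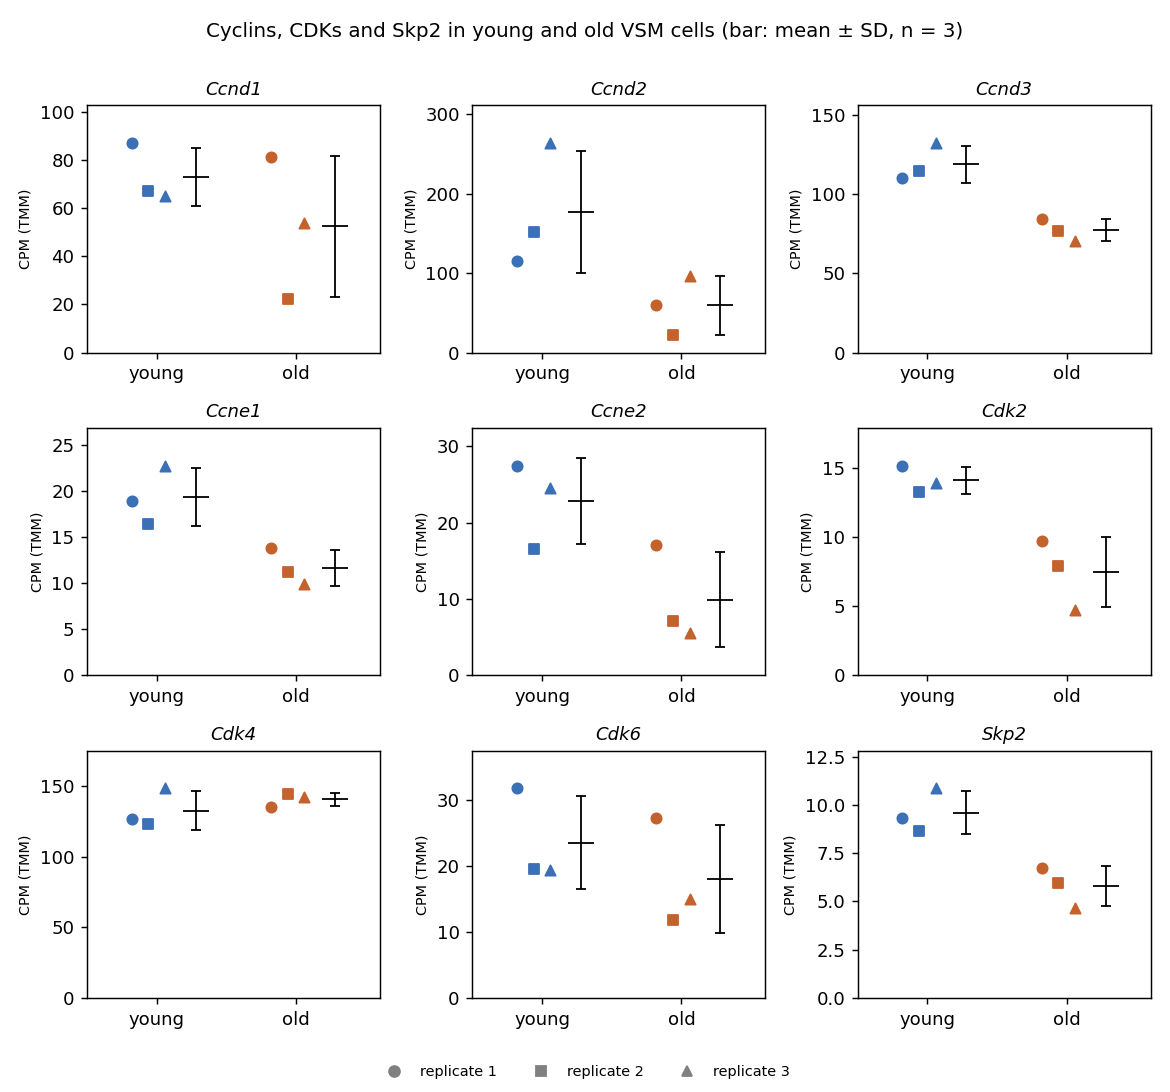
TMM-normalized CPM (vertical axis, from 0, a separate scale per gene) of the kinases and cyclins that the inhibitors act on and of Skp2, in young and old VSM cells, with the mean ± SD (n = 3) beside the replicates. Old Ccnd2, Ccnd3, Ccne1, Cdk2 and Skp2 lie below all young values, while Cdk4 overlaps, at 133 and 141 CPM.

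Downstream of E2F, 30 of 30 target and proliferation genes had a lower estimate in old VSM cells, with log2 fold changes from -1.82 to -0.43 and a median of -1.16. Of these, 14 had an unadjusted p under 0.05 in edgeR, beside 11.5% of all genes in that direction. In 11 (36.7%) the old libraries all lay below the young ones, beside 14.7% of all genes. The summed level of the 30 genes was 1530, 1018 and 1490 CPM in the young libraries and 1092, 418 and 358 CPM in the old libraries. Old replicate 1 thus lay within the young range and the other old libraries far below it, and without old replicate 1 the median was -1.99. Mki67, the proliferation antigen gene, had 142, 87.6 and 145 CPM in young and 103, 29.9 and 17.5 CPM in old (log2 fold change -1.31, edgeR adjusted p = 0.277). Lmnb1, which encodes lamin B1 and is known to be lost in senescent cells, had 44.9, 29.7 and 42.8 CPM in young and 34.0, 12.5 and 6.70 CPM in old (log2 fold change -1.14, edgeR adjusted p = 0.279).

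The replication licensing genes Cdc6, Cdt1 and Mcm5 had the largest differences of the list, with log2 fold changes of -1.82, -1.65 and -1.64 and edgeR adjusted p of 0.18, 0.128 and 0.194. In all 3 the old libraries lay below the young ones. DESeq2 called these and Mcm3, 4 of the 30 genes, beside 5.56% of all genes. The order of the old libraries in the summed level, with replicate 1 the highest and replicate 3 the lowest, was also that of Cdkn2c and Cdkn2d, and the reverse of Cdkn1c and Rb1. With 3 libraries few orders are possible, and the share of all genes with either order was not counted, so this is a description only.

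Of 25 genes that control the INK4 locus or p27, 14 had a higher and 11 a lower estimate in old, and the median log2 fold change was 0.05. Groups did not overlap in 9 (36.0%), 4 higher and 5 lower in old, a share close to the 29.2% of all genes. Ets1, which encodes a factor that activates the p16 promoter, had 97.5, 97.7 and 112 CPM in young and 58.3, 52.9 and 47.8 CPM in old (log2 fold change -0.95, standard error 0.11, edgeR adjusted p = 0.0531). Id1, which encodes an antagonist of that activation, was also lower, with 13.3, 13.9 and 15.3 CPM in young and 8.62, 5.89 and 8.14 CPM in old (log2 fold change -0.91, edgeR adjusted p = 0.0741). DESeq2 gave adjusted p of 1.16e-09 for Ets1 and 0.000314 for Id1. Their log2 fold changes in that test, -0.96 and -0.92, were short of the threshold on fold. Among Polycomb genes, which silence the locus, Bmi1 was at 44.9 ± 3.76 CPM in the young and 41.2 ± 2.53 CPM in the old cultures, and Cbx7 had 3.61, 2.88 and 1.55 CPM in young and 1.89, 4.66 and 7.11 CPM in old. Polycomb genes of the list without overlap went both ways. Eed and Suz12 were lower (edgeR log2 fold change -0.40 and -0.24), and Pcgf2 and Ring1 were higher (0.39 and 0.16). Besides these and Ets1 and Id1, the genes of the list without overlap were Foxo3 and Kdm6b, both higher (0.76 and 0.76), and Id3, lower (-0.64). Ezh2, a Polycomb gene counted here among the E2F targets, had 16.2 CPM in both the lowest young and the highest old library (20.7 ± 4.33 and 11.6 ± 4.04 CPM, edgeR adjusted p = 0.164).

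Genes of the senescence secretory program had estimates in both directions. Of 29 measured genes, 10 had a higher and 19 a lower estimate in old, and the median log2 fold change was -0.36 and values from -5.03 to 2.37. Igfbp4, an IGF binding protein gene, was 5.16-fold higher, with 53.3, 30.6 and 12.6 CPM in young and 187, 147 and 164 CPM in old (log2 fold change 2.37, standard error 0.49, edgeR adjusted p = 0.0801). Its relative Igfbp5 was lower, with 33.1, 221 and 90.8 CPM in young and 5.19, 7.71 and 29.4 CPM in old (log2 fold change -3.02, standard error 0.92, edgeR adjusted p = 0.145). Il1a, the upstream cytokine of the program, was present in young replicates 1 and 2 (43.3 and 23.5 CPM), low in old replicates 1 and 2 (1.09 and 0.962 CPM) and had 0 counts in young replicate 3 and old replicate 3 (log2 fold change -5.03, standard error 2.00, edgeR adjusted p = 0.21), so the young libraries alone ranged from 0 to 43.3 CPM. DESeq2 called 3 genes of the list higher and 4 lower in old, where it called 2.25% of all genes higher and 3.31% lower. Of the 29 genes, 31% had groups that did not overlap, 4 higher and 5 lower in old, beside 29.2% of all genes.

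**Figure D4:**
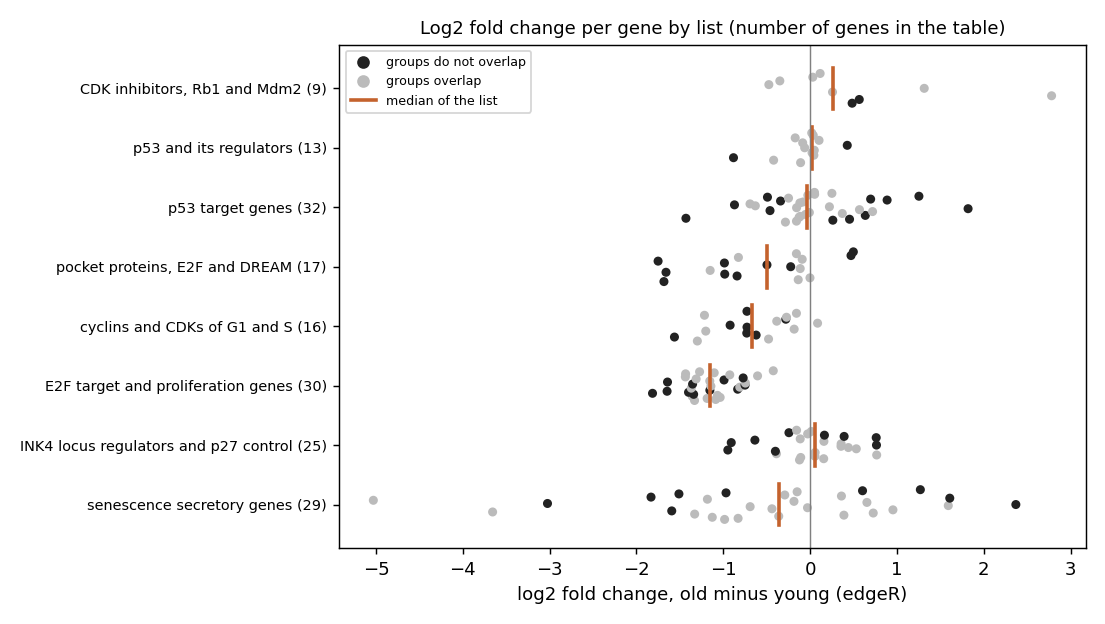
Log2 fold change (old minus young, edgeR) of each gene in the table, by list, with the number of genes in parentheses. Black points are genes whose old and young libraries do not overlap, grey points overlap, and the orange line is the median of the list. The proliferation genes all lie below 0 with a median of -1.16, while the 9 members have a median of 0.26.

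For each member, the other genes whose log2 CPM followed it most closely over the 6 libraries were sought among 12256 genes that averaged at least 1 CPM. Pearson's r of the closest 3 genes lay between 0.969 and 0.996 and is a description only, since many genes were searched over few libraries that share depth and culture. Cdkn2b was followed most closely by Tsc22d3, Srgap3 and Cilp (r of 0.995, 0.995 and 0.994), of which Tsc22d3 is a glucocorticoid-induced gene and Cilp encodes a matrix protein of cartilage. Cdkn1a was followed by Zfp862, Krt8 and Pecr (0.996, 0.991 and 0.991), and Cdkn1b by Dtwd1, Zfp516 and Poll (0.989, 0.985 and 0.982). For Cdkn2c they were Ndufs3, Chchd1 and Atp5mf (0.996, 0.995 and 0.989), which encode mitochondrial proteins. The closest genes were Phf8, Depdc5 and Ubr2 for Cdkn1c (0.994, 0.988 and 0.987), S1pr2, Fam78b and Emp1 for Cdkn2a (0.987, 0.984 and 0.983), and Rab4b and Ctbp1 among named genes for Cdkn2d (0.987 and 0.985). For Rb1 they were Fbxl4, Dnajb12 and Zbtb49 (0.994, 0.994 and 0.981), and for Mdm2 they were Tango2, Spag9 and Tbc1d4 (0.98, 0.971 and 0.969). None of these genes was in the pathway lists.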

How the data were processed

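The authors trimmed reads with Cutadapt 3.5 through Trim Galore 0.6.7, aligned them with STAR 2.7.10b to Rnor 6.0 and counted genes with featureCounts of Subread 2.0.8, each library separately. The deposited values are raw counts, without normalization. How strand, mates and multi-mapping reads were handled is not stated in the paper or labels. The filter of 10 counts in 3 libraries removed none of the 14475 genes, of which 1518 had no symbol.

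Old and young libraries (3 each) were compared in R 4.3.3 with edgeR 4.0.16 (TMM, quasi-likelihood F test, Benjamini-Hochberg over all genes, no covariates). Standard errors were derived as |log2 fold change|/√F. DESeq2 1.42.0 and limma-voom (limma 3.58.1) were alternatives. RefSeq promoters are of GRCr8, so no coordinates of the counted genes are given. The p-values set the difference between the groups against the variation between 3 cultures per group, which was moderated over all genes. The members and lists were chosen with earlier results of these data known. Genes named are the members, textbook partners, called genes, the 3 largest log2 fold changes per list above 1 CPM and, in the INK4 list, the genes without overlap. No library repeated another of its group (chi-square per gene at least 67.1). The values of 1 gene of the p53 regulation list are not reported here.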

Additional observations from a re-analysis of the deposited data

How the results depend on the processing

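Of the 16 alternatives, 15 called 0 of the 9 members, and without old replicate 1 the count was 1, Cdkn1c (log2 fold change 3.33). The alternative without the filter on low counts could not differ from the main fit, since that filter removed no gene. With each library left out, calls among members ranged from 0 to 1, members without overlap from 2 to 6 (2 with all libraries), while the share of all genes without overlap was 36.2% to 52.6% (29.2% with all libraries). Calls over all genes then ranged from 0 to 732. Calls over all genes, 1 in edgeR, were 805 in DESeq2, 0 in limma-voom, 65 after requiring 1 CPM in 3 libraries, and 381 at an adjusted p under 0.1. The sign turned for Rb1 without young replicate 1 (-0.03) and without old replicate 3 (-0.041), and for Mdm2 without young replicate 3 (-0.061) and without old replicate 1 (-0.02). The other 7 members kept their sign under every alternative that gave a value. Over single omissions Rb1 ranged from -0.041 to 0.28 and Mdm2 from -0.061 to 0.11. The filter on CPM removed Cdkn1c, and halving the counts, with 1 call over all genes, called 0 members. The median of the E2F target list ranged from -1.99 to -0.85 and that of INK4 regulators from -0.017 to 0.11 with a library left out, and the latter was 0.011 in limma-voom. The causes were not tested.

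With the replicate number as a replicate block, edgeR called 1 gene and 0 members, and the log2 fold change of Cdkn2b was 1.09. Deviations of libraries with the same number correlated at 0.06, 0.32 and 0.31 over 12257 genes, and old replicate 1 correlated best with young replicate 3, so the numbers were not taken to pair the cultures. Counts as low as 4 limit Cdkn1c, and 3 libraries per group limit the other members.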
